A study of Nematostella vectensis with 123 samples.

Results

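The 200 transcript models described here were present in the youngest embryos of Nematostella vectensis, the starlet sea anemone, a cnidarian, and were scarce for the rest of the series. They were chosen from these same data, by medians of CPM (counts per 1000000 gene counts of an embryo) in 6 h windows of label time. A model had to reach 20 CPM in 0-6 h and have a 6-12 h median no more than 2-fold below that level. Its medians in 12-18 h and 42-48 h both had to be at least 4-fold below it. Of 40499 models, 7676 reached 20 CPM in 0-6 h and 643 met all 4 thresholds. The 200 with the lowest ratio of 12-18 h to 0-6 h are called the members.

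The series holds 123 untreated single embryos, each sequenced with CEL-Seq, which reads the 3' end of polyadenylated RNA from a barcoded sample. Embryos were picked at the 4-cell stage, kept at 20 °C and frozen singly. DSN, a nuclease treatment that depletes abundant molecules, was applied to the library, so levels of abundant models are compressed to an unknown degree. The labels give 1 time point per embryo with no unit, read here as minutes. Embryos 1 to 73 run from -20 to 2840 min, and embryos 74 to 123 run from 2360 to 4320 min, which is 72 h. Only embryos 1 to 73 entered the rule. Embryo 50, labelled -20, was counted in 0-6 h. In embryos 1 to 73 the windows 0-6, 6-12, 12-18 and 18-24 h held 10, 9, 8 and 8 embryos, and each later one up to 42-48 h held 9. In embryos 74 to 123 the windows from 36-42 to 66-72 h held 4, 8, 9, 9, 9 and 10. Nothing in the labels says whether embryos came from separate clutches, so errors and p-values reflect no more than how these embryos differ.

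An animal egg is stocked with mRNA made by the mother. Early cleavage relies on that stock, and much of it is destroyed in waves while the embryo's own genome takes over, a change known as the maternal-to-zygotic transition. In the animals studied most, that decay is carried out by factors laid down in the egg and by others that the embryo makes. No unfertilised egg was used here, so a model is called early rather than maternal. The identifiers could not be paired with gene names, and none of the 200 matched the reference table, so no function or sequence is given for any member.

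Gene counts ran from 58680 to 2646585 over the 120 embryos used, with a median of 835502. A count of 0 at the median depth allows a level of about 3.59 CPM, taking 3 counts as the limit. That limit covers counting error only. Embryos 10 and 111 held fewer than 50000 gene counts and were left out. The rule also leaves out embryo 27, with 56536 gene counts and 0.254 gene counts per spike-in count, against at least 1.62 in every other embryo used up to 18 h. Values of embryo 27 are given beside the result they touch.

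The members were of moderate abundance at the start. Their 0-6 h medians ran from 20.2 to 3238 CPM, with a median of 61.7 CPM, against 48.1 CPM for all 7676 models. At 100 CPM or more stood 64 members, and 5 reached 1000 CPM. Together they held 2.68 to 4.06% of gene counts in the 10 embryos of 0-6 h (3.38 ± 0.37%, mean ± SD, n = 10). Within that window the median coefficient of variation between embryos was 38.1% for the members and 39.7% for all 7676 models. The members' spread thus lay close to that of early models in general.

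Some members were low in the embryos with the lowest label times and not only after 10 h. In embryo 1 (label 0) 40 of 200 members were at least 4-fold below their 0-6 h median, beside 10.9% of all 7676 early models. In embryo 50 (label -20) 13 members were, beside 3.8%, and in each of embryos 2 to 9 between 1 and 6 members were. Both embryos were low for 9 members (4.5%), beside 1.68% of all early models. Among the 9, Nv.T1.11527.1 read 0 CPM in both and 12.3 to 147 CPM in the 8 other embryos of 0-6 h. Nv.T1.43447.1 read 13.8 CPM in embryo 50, 17.6 CPM in embryo 1 and 58.4 to 121 CPM in the others. Both embryos entered the 0-6 h medians of the rule, and these 2 members were picked after their values were seen. The median ratio over all members was 1.00 in embryo 50 and 0.718 in embryo 1, where it was 0.766 over all early models.

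The thresholds cut through a continuous range. Just inside and just outside the level threshold stood Nv.T1.1912.3 at 20.2 CPM and Nv.T1.10103.3 at 19.9 CPM. At the 6-12 h threshold the ratio to 0-6 h was 0.505 for Nv.T1.1550.1 inside and 0.499 for Nv.T1.6683.3 outside. At the 42-48 h threshold it was 0.245 for Nv.T1.16985.1 and 0.251 for Nv.T1.48600.1. The 200th member had a ratio of 12-18 h to 0-6 h of 0.1164 after adding 1 CPM to both, and the next model had 0.1166. Values on the 2 sides of each edge were nearly equal.

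By window medians the members seemed to be lost between 6-12 h and 12-18 h, which is what the rule asked for: at least 4-fold below 0-6 h were 0 members in 6-12 h and all 200 in 12-18 h, beside 0.977% and 17.8% of all models. The median member stood at 61.7 CPM in 0-6 h, 44.6 CPM in 6-12 h and 3.99 CPM in 12-18 h. The single embryos place the fall earlier, and against the name "lost at 12-18 h". By label time it lay before 12 h, between embryo 17 (600 min, 10 h) and embryo 18 (640 min). That time rests on embryos 18 and 19 (680 min), and the typical member stood higher again in embryo 20 (720 min). With a single embryo per label time, a trait of these embryos cannot be told apart from a fall at that time. The 6-12 h median does not show the fall, because 7 of the 9 embryos of that window had labels up to 600 min.

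**Figure D1:**
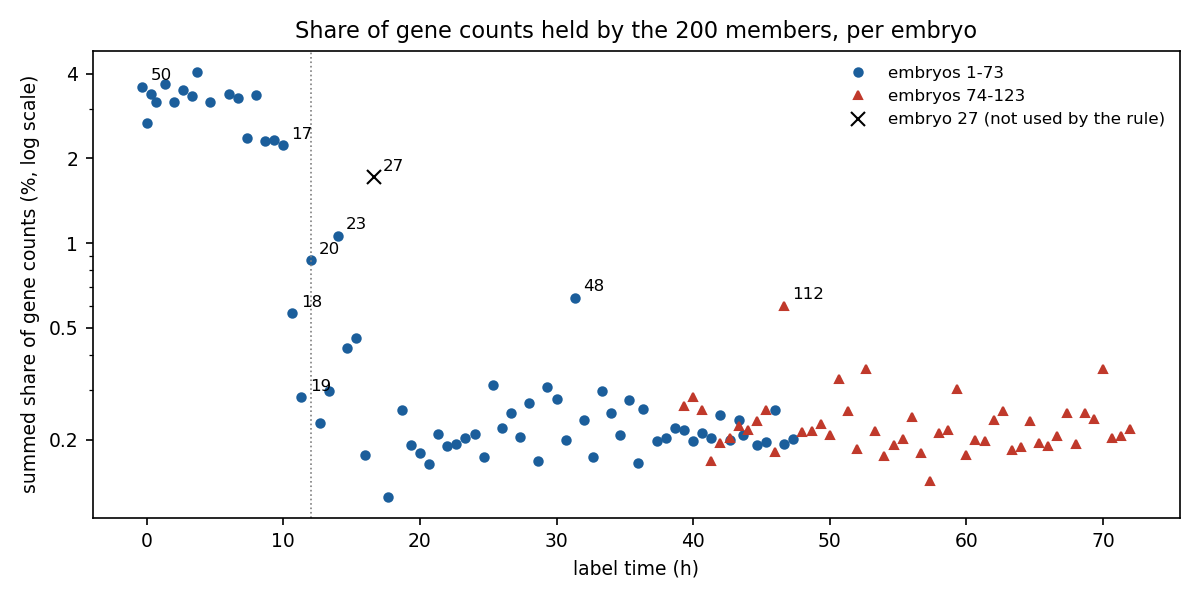
Share of all gene counts held by the 200 members (y axis, %, log scale) against label time (x axis, h), 1 point per embryo; circles are embryos 1 to 73, triangles embryos 74 to 123, the cross is embryo 27, which the rule left out, and the dotted line marks 12 h. The share lay between 2.23 and 4.06% up to embryo 17 at 10 h and was 0.565% in embryo 18 and 0.284% in embryo 19, both left of the line.

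The summed share shows the step embryo by embryo. It was 3.39, 3.28, 2.36, 3.35, 2.31, 2.33 and 2.23% in embryos 11 to 17, then 0.565% in embryo 18 and 0.284% in embryo 19. The first 5 embryos after 12 h, embryos 20 to 24, gave 0.870, 0.230, 0.298, 1.06 and 0.424%. Embryos 25, 26 and 28 gave 0.460, 0.176 and 0.126%. All 7 embryos from 360 to 600 min were thus above all 10 used embryos from 640 to 1060 min. Much of this separation was set by the rule, which used these embryos and required low medians in the window after 12 h. Embryos 18 and 19 lie in the window before, whose median had to stay high, so their low values were not required. The high value of embryo 23 came from 1 member, Nv.T1.12653.653, which held 70.9% of the members' counts there; without it the share was 0.309%. Embryo 27, at 1000 min, gave 1.72%, between the 2 sets, from only 970 member counts.

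The same step appeared in the typical member. The median ratio of a member's level to its own 0-6 h median was 0.955, 0.963, 0.782, 0.916, 0.765, 0.635 and 0.728 in embryos 11 to 17. It was 0.116 in embryo 18 and 0.0646 in embryo 19, then 0.226 in embryo 20 and 0.0293 in embryo 21. Over all 7676 early models the ratio was 0.920 in embryo 17, 0.735 in embryo 18 and 0.770 in embryo 19. Embryos 13 to 17 stood below embryos 11 and 12, though only embryo 16 was below the lowest reading of 0-6 h, 0.718 in embryo 1. In embryos 18 and 19 the members stood far lower than the typical early model did. Embryo 20 stood above both of its neighbours in label time.

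Counting members at least 4-fold below their 0-6 h median gives the same order. In embryo 17 that held for 29 of 200 members, or 14.5%, beside 13.8% of all 7676 models. In embryo 18 it held for 140 members beside 23.4% of all models, and in embryo 19 for 188 members beside 19.2%. Embryo 20 had 104 such members beside 13.4%, and embryo 23 had 178 beside 19%. In embryo 27 there were 84 such members, beside 30.4% of all models. The members' share lay near the background in embryo 17 and far above it in embryos 18 and 19; for the embryos after 12 h, the rule itself fixes much of the gap.

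The lowest level that can be seen depends on depth, so the 64 members at 100 CPM or more were also counted alone. Embryos 17 and 18 held 206062 and 269450 gene counts, where 3 counts equal 14.6 and 11.1 CPM; embryo 19 held 1333573, where they equal 2.25 CPM. At least 4-fold below were 5 of these 64 members in embryo 17, 49 in embryo 18 and 62 in embryo 19. The count was 32 in embryo 20 and 64 in embryo 28, in a window whose median the rule required to be low. Of all 7676 early models, 13.8%, 23.4% and 19.2% were that low in embryos 17, 18 and 19. No such share is given for the 1742 of them at 100 CPM or more, so the 64 members are not compared with early models of like level. Embryo 19, a deep library with a label before 12 h, was low for nearly every abundant member.

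CPM are shares of a library, so the members' counts were also set against the ERCC spike-ins, synthetic RNAs added to each sample in an amount that the sources used here do not give. This scaling was chosen after seeing the data. Gene counts per spike-in count were 1.62 in embryo 17, 3.24 in embryo 18 and 2.85 in embryo 19. Per spike-in, the median ratio of the members to 0-6 h was 0.506, 0.163 and 0.0741 in these embryos, and that of all 7676 models was 0.620, 0.996 and 0.918. The step between embryos 17 and 18 was smaller on this scale, and the low level of embryos 18 and 19 was still present while the typical early model stood near its start. In embryo 27 the values per spike-in were 0.0382 for the members and 0.0718 for all models, so that its place depends on the scale.

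**Figure D2:**
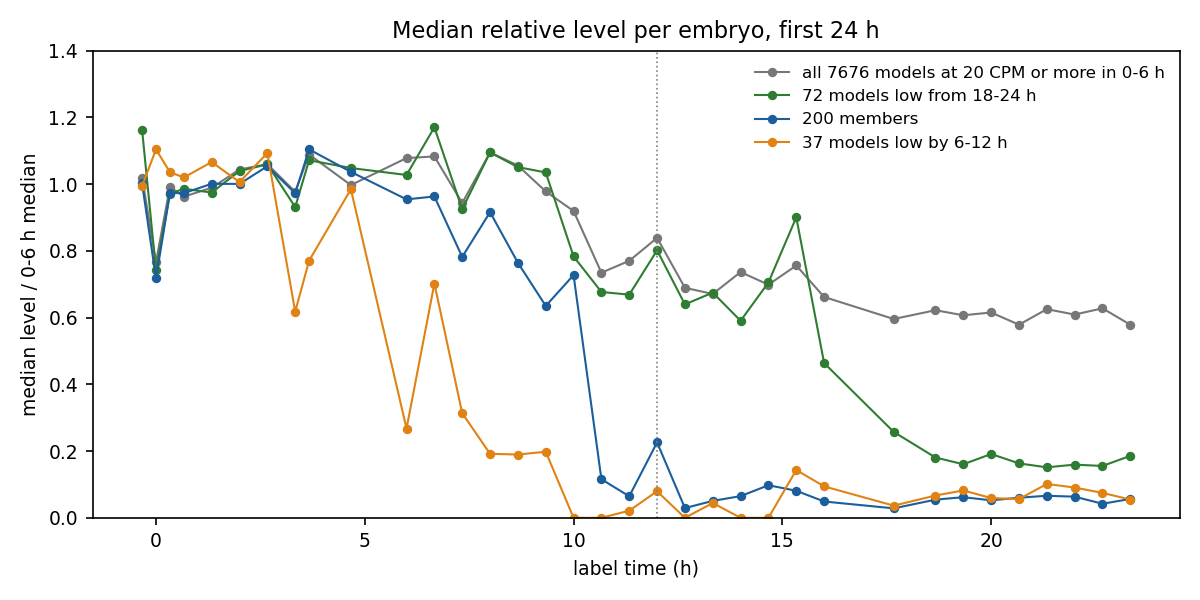
Median over a set of models of the level relative to the 0-6 h median (y axis, no unit) against label time (x axis, h) for the embryos used up to 24 h, 1 point per embryo: the 200 members, 37 models low by 6-12 h, 72 models low from 18-24 h and all 7676 models at 20 CPM or more in 0-6 h. The members drop from 0.728 at 10 h to 0.116 in the next embryo, after the 37 models and before the 72; the dotted line marks 12 h.

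The members fell between 2 other sets cut from the same windows. The 37 models at least 4-fold down by 6-12 h already stood at a median ratio of 0.268 in embryo 11, at 0.702 in embryo 12 and at 0.190 in embryo 15. The 72 models that held through 12-18 h and were 4-fold down by 18-24 h stood at 0.783 in embryo 17, 0.677 in embryo 18 and 0.669 in embryo 19. They reached 0.464 in embryo 26, 0.258 in embryo 28 and 0.181 in embryo 29. The order of the 3 sets is fixed by how they were chosen. The windows limited, but did not fully fix, where inside them each set fell. The starting levels also differed, with median 0-6 h levels of 34.4 CPM for the 37 models and 80.6 CPM for the 72.

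**Figure D3:**
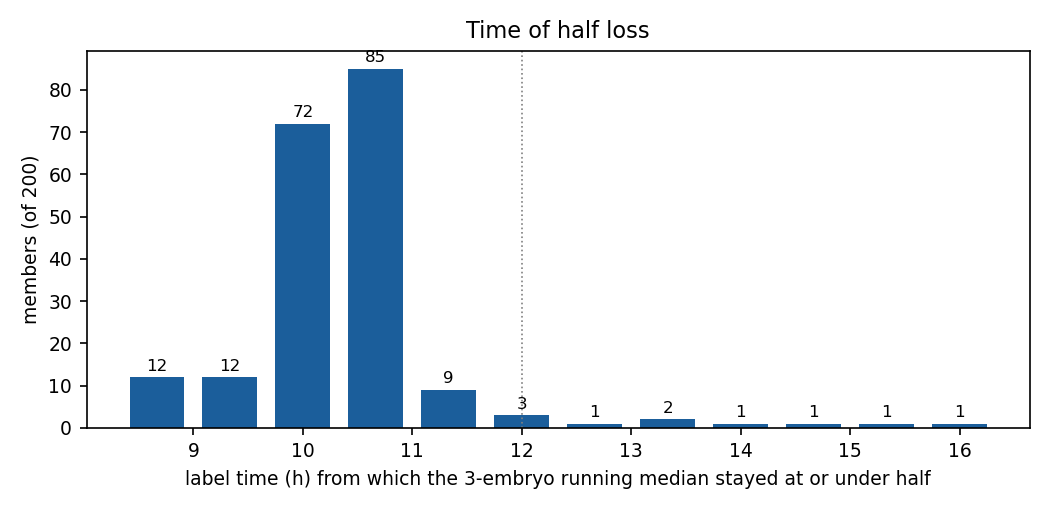
Number of members (y axis, of 200) by the label time (x axis, h) from which the running median of 3 embryos stayed at least 2-fold below the 0-6 h median. Bars carry their counts; 72 members stand at 10 h and 85 at 10.7 h, and the dotted line marks 12 h.

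Most members crossed between 520 and 680 min. Timing was taken from the running median over 3 neighbouring embryos, as the first label time from which it stayed at least 2-fold below the member's 0-6 h median. That time was 520 min for 12 members, 560 min for 12, 600 min for 72, 640 min for 85 and 680 min for 9. In all, 190 of 200 members (95%) crossed before 720 min, and the median was 640 min. Before 640 min, 96 members had crossed. Taken instead as the first time the running median was that low, the median was 600 min. The remaining 10 lay between 720 and 960 min, 3 of them at 720 min. Because the running median takes 1 embryo on either side, a time is uncertain by at least 1 sampling step of about 40 min. The rule limited, but did not fully fix, where these times could fall. It required a 6-12 h median no more than 2-fold below the 0-6 h median, and a low median in the next window. No such times are given for all early models, so the 95% is not read as a trait of the members.

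Single members show how the fall looks at the ends of this order. Among the earliest, Nv.T1.50694.1 read 268, 202, 204 and 296 CPM in embryos 14 to 17 and 11.1 CPM in embryo 18, with a 0-6 h range of 198 to 822 CPM. Nv.T1.6317.2 read 214, 137, 155 and 446 CPM in embryos 14 to 17, then 115 CPM in embryo 18 and 6.75 CPM in embryo 19. Its value in embryo 17 lay within its 0-6 h range, so the early time rests on embryos 15 and 16. Both of the latest members were low in level. Nv.T1.8634.1 read 0 CPM in embryos 18 to 20 and then 24.6 and 37.4 CPM in embryos 24 and 25. Nv.T1.11589.1 read 0 CPM in embryo 18, 17.4 CPM in embryo 23 and 20.8 CPM in embryo 25. In both, the late time comes from a few single readings and not from a level held up to then.

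The 2 most abundant members, Nv.T1.7790.6 and Nv.T1.7790.4, share an identifier stem. In 0-6 h Nv.T1.7790.6 read 2424 to 5648 CPM, with a median of 3238 CPM. It read 1490 CPM in embryo 17, 275 in embryo 18, 259 in embryo 19, 621 in embryo 20 and 114 in embryo 21. In 18-24 h it read 64.2 to 112 CPM, below every embryo up to 12 h. The other model matched it closely: over 19 embryos the mean log2 ratio of Nv.T1.7790.4 to Nv.T1.7790.6 was 0.00 with an SD of 0.13. How the counting divided reads between near-identical models is not given in the sources used here, so the 2 levels are uncertain and may hold 1 signal.

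The 2 members with the lowest ratio of 12-18 h to 0-6 h were less regular. Nv.T1.66446.1 read 59.6 to 135 CPM in 8 of the 10 embryos of 0-6 h, but 2.95 CPM in embryo 50 and 3.38 CPM in embryo 1, those with the lowest label times. It read 67.9 CPM in embryo 17, 0 in embryos 18 and 19, 66.7 in embryo 20 and 0 in embryo 21. The level thus went from 0 to near its start and back within 4 consecutive embryos. Nv.T1.23855.1 read 35.3 CPM in embryo 16 and 0 CPM in each of embryos 17 to 22, and returned to 5.84 to 28.0 CPM in 18-24 h.

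**Figure D4:**
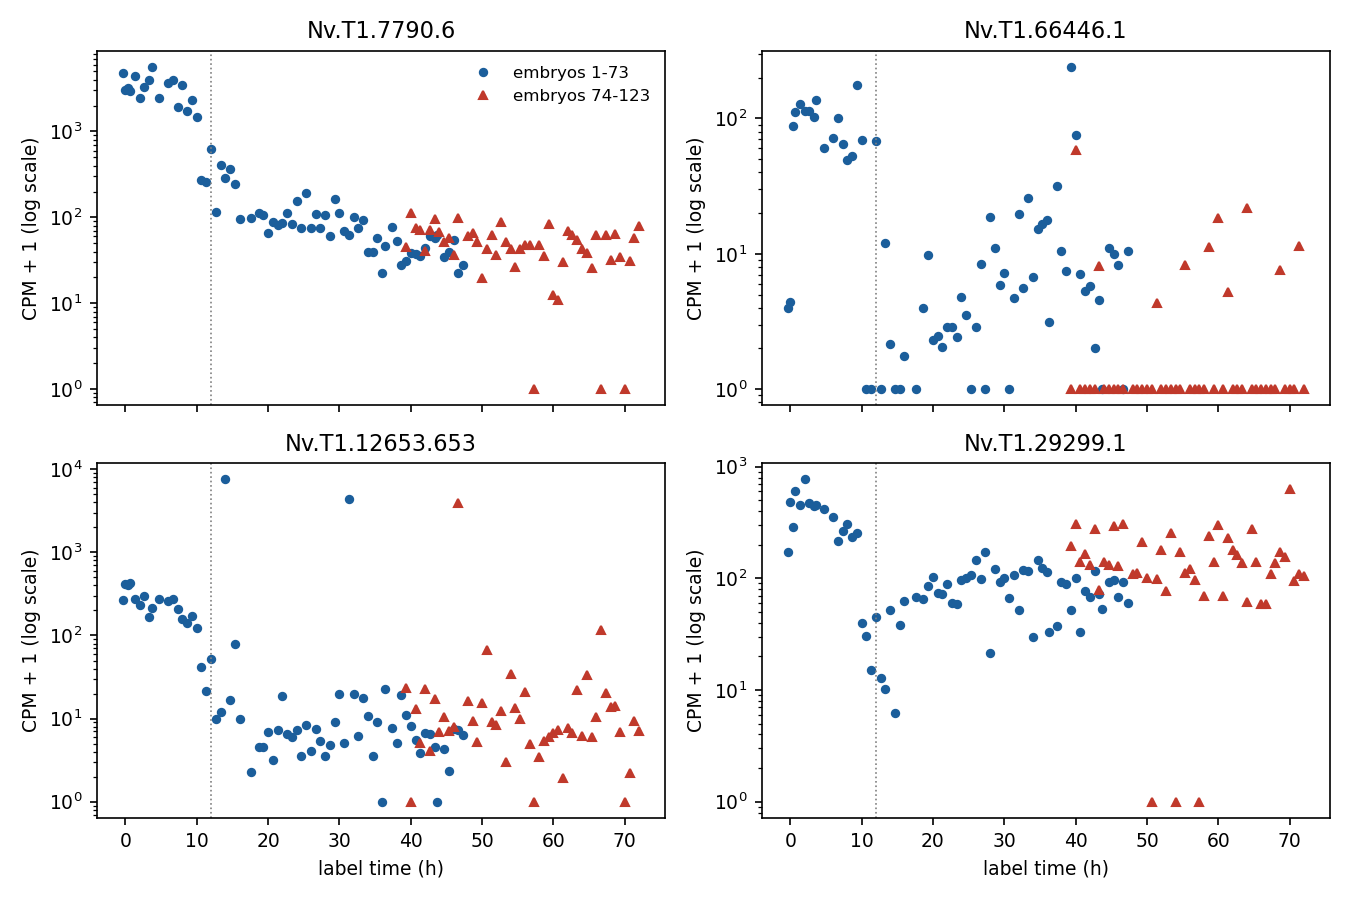
Level of 4 members in each embryo used (y axis, CPM + 1, log scale, so that 1 marks 0 CPM) against label time (x axis, h); circles are embryos 1 to 73 and triangles embryos 74 to 123, and the dotted line marks 12 h. Nv.T1.7790.6 steps down before the line, Nv.T1.66446.1 is low in the embryos labelled -20 and 0 min, Nv.T1.12653.653 jumps in embryos 23, 48 and 112, and Nv.T1.29299.1 returns in part after 18 h.

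Slopes over label time inside each window put a number on the same picture. The windows 0-6, 6-12 and 12-18 h were fitted together over 27 embryos with edgeR's quasi-likelihood test, and a slope is the log2 change per 6 h. A model was called at a Benjamini-Hochberg adjusted p under 0.05 over all models tested and a size of at least 1. The embryos of these windows also entered the rule, so the slopes describe the members and support nothing.

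In 0-6 h the members showed no called slope. Of 200 tested, 0 were lower and 0 were higher with edgeR, where 0.0864% and 0.133% of all models were called; 5 members had an unadjusted p under 0.05, and DESeq2 also called 0. The median slope was 0.11 for the members and -0.01 for all models. In simulated cases with the same spread for every model, slopes of 2 were found in 19% and slopes of 4 in 89%. A slope of about 2 would thus mostly have been missed with these embryos, and steeper ones too in members that vary more.

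In 6-12 h the slopes were steep and downward. Of 200 members, 30 (15%) fell and 0 rose, where 2.48% of all models were called lower and 6.36% higher. The estimate was negative for 196 members, with a median of -2.91 against -0.12 for all models. Called slopes ran from -6.05 to -2.83. The steepest were those of Nv.T1.23855.1 (-6.05 ± 1.58, SE, edgeR adjusted p = 0.013, n = 9 embryos) and Nv.T1.5342.1 (-5.83 ± 1.38, edgeR adjusted p = 0.0073). The latter read 53.4 CPM in embryo 17, 0 in embryo 18 and 3.75 in embryo 19, against 116 to 273 CPM in embryos 11 to 16.

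These calls rest on embryos 18 and 19. Without embryo 19 no member was called, without embryo 18 the count was 8, and without both, an alternative added after seeing the data, it was 0 with a median slope of -0.94. Leaving out embryo 17 raised the count to 68, and leaving out any other single embryo gave 22 to 43. The low readings of 2 libraries thus carry the slopes of this window.

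Within 12-18 h most members still had a downward slope, and few passed the test. Of 200 members, 1 fell and 0 rose, beside 0.121% of all models called lower and 0.023% higher. That member, Nv.T1.19686.1, read 89.7 CPM in embryo 20, 32.6 in embryo 21 and 0 to 14.7 in the other 6 embryos used. Its slope was -7.16 ± 1.37 (SE, edgeR adjusted p = 0.022, n = 8 embryos), and embryo 20 held 59.3% of its summed level. The estimate was negative for 154 members. Over all 200 members the median slope was -1.70, against 0.19 for all models. It was -0.59 without embryo 20, with no member called. DESeq2 called 10 members lower and 3 higher. In simulated data slopes of 2 in this window were found in 10% of cases, so few calls do not show that the decline had ended. With embryo 27 included no member was called either.

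After 18 h the members stayed low in embryos the rule had not used. In the windows 18-24, 24-30, 30-36 and 36-42 h the median member stood at 0.0561, 0.0669, 0.0839 and 0.0674 of its 0-6 h level. The medians of 198, 194, 192 and 195 members were at least 4-fold below it, where this held for 21.1%, 22.4%, 22.1% and 25.6% of all 7676 models. The rule had required low medians both just before and just after these windows, so the choice of members set much of that gap. Over the 84 embryos from 18 h on that the rule had not used, the summed share ran from 0.143 to 0.641% with a median of 0.211%. Only embryos 48 and 112 exceeded 0.4%, and in both Nv.T1.12653.653 held most of the members' counts.

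In the second run of embryos the members were low too, and by CPM their median was lower than in the first. In embryos 74 to 123 the median member stood at 0.0219 to 0.0299 of its 0-6 h level in the windows from 36-42 to 66-72 h. At 42-48 h it stood at 0.0238, against 0.0819 in the first run. These windows had 190, 189, 189, 188, 181 and 196 members at least 4-fold below 0-6 h. The shares of all models were 33.6%, 28.9%, 29.9%, 33.1%, 33.2% and 36.9%. Between 71 and 85 members had a median of 0 in each of these windows, against 11 to 24 in the windows from 18-24 to 42-48 h of the first run. No share of all models at 0 is given beside these counts, so they are not read as a trait of the members. All models were lower in the second run too: at 42-48 h 28.9% were at least 4-fold down, against 23.5% in the first run. Median gene counts per spike-in count at 42-48 h were 15.2 in the second run and 7.47 in the first. With spike-in totals the difference between the runs at equal label times turned upward, for members and all models alike. Embryos 74 to 123 have no counterpart below 39.3 h, so that number block and age cannot be told apart past 48 h.

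**Figure D5:**
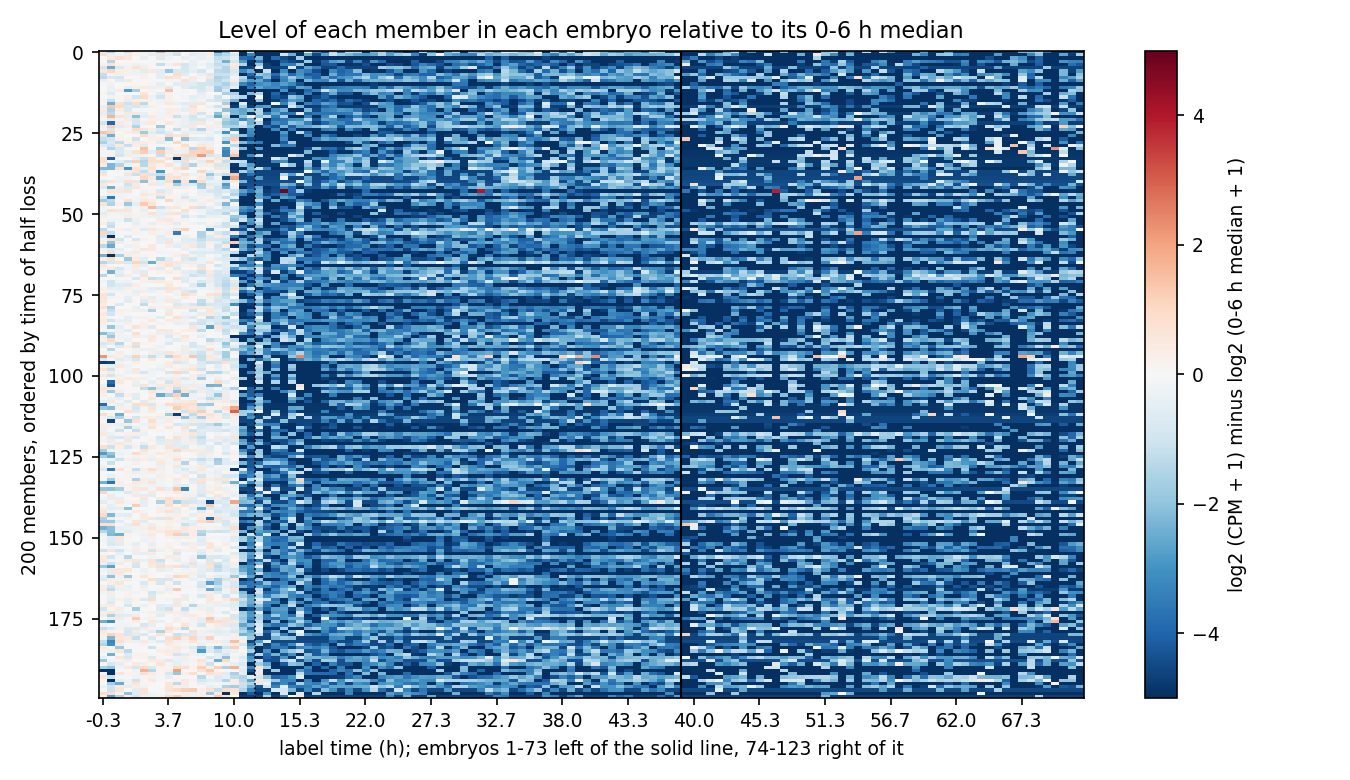
Each row is 1 of the 200 members, ordered by the time of 2-fold loss, and each column 1 of the 120 embryos used, ordered by label time within embryos 1 to 73 (left of the solid line) and 74 to 123 (right of it); colour is the difference of log2 (CPM + 1) from log2 (0-6 h median + 1), limited to the range -5 to 5, and the dotted line marks 12 h. Nearly all rows turn blue left of the dotted line and stay blue, with single red cells for Nv.T1.12653.653 in embryos 23, 48 and 112.

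In the later windows few members were called, at shares near those of all models. Of the members, 114 passed the filter on low counts for the fit of 18 to 48 h, and those that did not had too few counts to test. From 18-24 h to 24-30 h, 0 of 114 fell and 0 rose with edgeR, where 0.319% and 0.632% of all models were called; 13 had an unadjusted p under 0.05, and DESeq2 called 4 higher. From 18-24 h to 36-42 h, 2 fell and 10 rose, where 4.41% of all models fell and 7.74% rose. The shares of members, 1.75% and 8.77%, lie near that background. With spike-in totals as library size, 2 members fell and 3 rose, and over all models the split turned from 705 lower and 1237 higher to 807 lower and 347 higher.

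None of the 10 members that rose came back to its early level. Their 36-42 h medians were 0.0343 to 0.283 of the 0-6 h medians. Some rose from near 0, such as Nv.T1.22133.1, with medians of 0.690 CPM in 18-24 h and 8.12 CPM in 36-42 h. The largest rise was that of Nv.T1.1964.1, which read 0 to 7.84 CPM in 18-24 h and 1.42 to 145 CPM in 36-42 h (4.08 ± 0.97 log2, SE, edgeR adjusted p = 0.0028, n = 8 and 9 embryos). Next was Nv.T1.66446.1, at 1.06 to 8.79 CPM and then 2.16 to 239 CPM (3.99 ± 0.78 log2, edgeR adjusted p = 0.00040). The ranges overlapped in both, and embryo 61 alone held 44.5% and 61.5% of the later sums. Its readings of 145 and 239 CPM stood above the 0-6 h medians of these members, 74.9 and 106 CPM.

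Both members that fell further belong to the stem of the most abundant pair. Nv.T1.7790.6 went from 91.1 ± 16.7 CPM (SD, n = 8 embryos) to 40.0 ± 16.4 CPM (SD, n = 9), a change of -1.01 ± 0.25 log2 (SE) with an edgeR adjusted p of 0.0044. It lies at the size threshold and was not called under 12 of 23 alternatives, with values of -0.99 to -0.93. Nv.T1.7790.3 changed by -2.20 ± 0.66 log2 (SE, edgeR adjusted p = 0.017). Without embryo 33 that value was -0.94 and not called.

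Within embryos 74 to 123 the members did not move as a group. From 39-48 h to 60-72 h, 1 of 78 members tested fell and 0 rose, where 0.0885% and 0.243% of all models were called. The 1 call was Nv.T1.12653.653 (-4.61 ± 0.79 log2, SE, edgeR adjusted p = 0.00099, n = 12 and 19 embryos). It read 3964 CPM in embryo 112 and at most 22.3 CPM in the other 11 embryos of the earlier group. Without embryo 112, an alternative added after seeing the data, the value was 0.51 and no member was called.

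The 2 runs of embryos could be set side by side at 11 equal label times. Of 55 members tested, 0 were lower in embryos 74 to 123 and 1 was higher, where 1.25% and 0.875% of all models were called. The median difference was -0.26 log2 for the members and -0.25 for all models. The 1 call, Nv.T1.29299.1, read 77.8 ± 23.7 CPM in the first run and 195 ± 84.3 CPM in the second (SD, n = 11 each), a difference of 1.13 ± 0.22 log2 (SE, edgeR adjusted p = 0.014). The first run's embryos from 42 h on entered the rule as low ones, so part of an upward gap is set by the choice of members.

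Nv.T1.29299.1 also shows a partial return. Its level was 253 CPM in embryo 16, 38.8 in embryo 17 and 14.2 in embryo 19, and 5.18 CPM in embryo 24. In 18-24 h it read 58.5 to 102 CPM, with a median of 72.1 CPM. All 8 of those readings were above every used reading from 640 to 960 min except that of embryo 26 (61.1 CPM), and below every one of 0-6 h (171 CPM at the lowest). The model was singled out by the comparison of the 2 runs, and its earlier course was looked at afterwards.

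The members are spread over many identifier stems, the part of a name before its last number. They carry 177 stems, and 146 members (73%) are the only model of their stem, against 70.8% of all 7676 early models. Only 6 stems hold 2 or more members, 29 in all, and members of a stem are not independent of each other. The largest group is 17 members in the stem of Nv.T1.12653.653, which has 539 models, 321 of them at 20 CPM or more in 0-6 h. Whether a stem stands for a locus or a repeated family was not given in the sources used here.

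That stem kept its total while its 17 members were lost. The median share of gene counts of the whole stem was 10.1% in 0-6 h, 10.1% in 6-12 h, 10.3% in 12-18 h and 8.87% in 18-24 h. That of its 17 members was 0.792, 0.581, 0.0910 and 0.0246% in the same windows. The members' loss thus had little bearing on the stem's sum, which the other 522 models carried.

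Over all stems the companion models did not share 1 fate. Of 28 stems that hold both members and other models, the one just described included, 12 had other models at 20 CPM or more in 0-6 h. Summed over those other models, 3 stems were at least 4-fold down in 12-18 h and 6 were at least 2-fold down, while 3 stood above their 0-6 h value. The median ratio of 12-18 h to 0-6 h was 0.594. In the stem of Nv.T1.6378.5 the member went from 64.1 to 4.27 CPM, while the other models of the stem summed to 130 CPM in 0-6 h, 208 CPM in 12-18 h and 408 CPM in 18-24 h. The loss of a member was therefore not always a loss of its stem. Counts that fall on overlapping models are uncertain.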

How the data were processed

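The deposited table holds raw, whole-number counts by the authors, 1 column per embryo. Its rows are 40499 transcript models, 92 ERCC spike-ins and 5 classes of unassigned reads. Per the submitters' processing notes, the tools were CASAVA 1.8, Bowtie2 2.1.0 and HTSeq 0.5.4p3. Genome build, annotation and use of strand are not given in the sources used here. Between 4.27 and 43.1% of an embryo's counts (median 10.1%) fell on no feature, and 30.0 to 71.0% (median 37.0%) were unaligned. Library sizes and tests used the models alone.

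CPM were computed over the models, in embryos with at least 50000 gene counts. The members and all lists were chosen with earlier results of these data known. The main test was the quasi-likelihood test of edgeR 4.0.16 in R 4.3.3, with filterByExpr and TMM factors, fitted over all models that passed the filter. Standard errors were derived from the log2 value and the root of its F statistic. A call needed a log2 value of at least 1 in size and a p under 0.05 after Benjamini-Hochberg adjustment. Equal label time was a block in the comparison of the 2 runs, which is where that pairing comes from. Per comparison at most 2 risen and 2 fallen members are named, those with the largest change and a mean of 10 CPM or more in the higher group. Nv.T1.22133.1 is named besides these, as an example of a rise from near 0. For the description, the most abundant, the lowest in ratio, and the earliest and latest members are named. Nv.T1.12653.653 and Nv.T1.5970.2 were chosen after their values were seen. DESeq2 1.42.0, spike-in totals, median-ratio factors, no filter, other library minimums and left-out embryos were alternatives.

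The tests were checked on simulated counts. Slopes of 4 were found in 89 to 91% of cases and slopes of 2 in 10 to 19% (17357 models). Changes were simulated only in models above a minimum mean level, with the same spread for every model and the same level in every window. The median member stood at 3.99 CPM in 12-18 h, so these shares do not carry over to the members in that window. For 24-30 h against 18-24 h, simulated on those windows alone (13590 models), log2 changes of 2 were found in 100% and of 1 in 42%.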

Additional observations from a re-analysis of the deposited data

Results flagged for a closer look

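In 5 of 26 groups of embryos tested for a single reading far from the rest, one was found; chance alone gives about 1 in 20. The summed share of the members was 0.641% in embryo 48 (31.3 h), against a median of 0.249% in 30-36 h of the first run. It was 0.599% in embryo 112 (46.7 h), against a median of 0.221% in 42-48 h of the second run. In both, Nv.T1.12653.653 was the member that stood out, with 68.6% and 66.2% of the members' counts; without it the shares were 0.201% and 0.203%. The share was 0.356% in embryo 77 (70 h), against a median of 0.213% in 66-72 h, from 209 member counts in the shallowest library used (58680 gene counts). There Nv.T1.12653.96 held 43.5% of the members' counts, and without it the share was 0.201%.

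Nv.T1.66446.1 read 66.7 CPM in embryo 20, while the other 7 embryos used in 12-18 h read 0 to 11.1 CPM. Nv.T1.23855.1 read 171 CPM in embryo 8, while the other 9 embryos used in 0-6 h read 7.88 to 81.3 CPM.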

How the results depend on the processing

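Of 373 values recomputed under an alternative, 280 kept their direction and their side of the threshold, or moved by no more than the limit set for them. Counts of called members moved by over 1.5 times as follows. In the slopes of 6-12 h the count went from 30 to 15 with spike-in totals, to 75 with DESeq2 and to 0 without embryos 18 and 19. In those of 12-18 h it went from 1 to 6 with no filter, 13 with DESeq2, and 0 with spike-in totals, with the window fitted alone or with embryo 27. DESeq2 called 4 members for 24-30 h against 18-24 h, where edgeR called 0. For 36-42 h against 18-24 h the count went from 12 to 5 with spike-in totals and to 7 with only these windows fitted. In embryos 74 to 123 it went from 1 to 6 with no filter, and to 0 with DESeq2, with only these groups, with a minimum of 500000 gene counts or without embryo 112. The value of Nv.T1.12653.653 then turned to 0.56 with DESeq2, 0.14 with the higher minimum and 0.51 without embryo 112. Between the 2 runs it went from 1 to 10 with no filter, 9 with spike-in totals and 5 with DESeq2. It stayed at 1 when label time was not a block, the unpaired fit. The cause of these shifts was not tested.

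Leaving out 1 embryo at a time gave 0 called members in 0-6 h, 0 to 68 in 6-12 h, 0 to 6 in 12-18 h and 8 to 13 for 36-42 h against 18-24 h. Leaving out 1 pair at a time gave 1 between the 2 runs each time. Over all models the counts called were 38 in 0-6 h (8 to 133 under the alternatives), 1534 in 6-12 h (2 to 2079), 25 in 12-18 h (0 to 138), 152 for 24-30 h (83 to 386), 1942 for 36-42 h (1154 to 2863), 45 within embryos 74 to 123 (9 to 2386) and 253 between the 2 runs (96 to 2860).

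Spike-in totals moved the median of all models from -0.12 to 0.34 for the slopes of 6-12 h, with the members at -2.55. For those of 12-18 h it moved from 0.19 to 0.88, with the members at -1.11. Between the 2 runs it moved from -0.25 to 0.82, with the members at 0.80. The rule is sensitive to scale: 643 models met it with CPM and 123 with spike-in scaling, which kept 70 of the 200 members. Its other alternatives gave 515 to 755 models and kept 125 to 184 members. Depth limits the late levels, since the median member stood near the level of 3 counts.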

Other observations

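Nv.T1.12653.653 read 7541 CPM in embryo 23 (14 h), 4397 CPM in embryo 48 and 3964 CPM in embryo 112. The next highest reading in each of these windows was 78.9, 18.8 and 21.9 CPM. A search over all 40499 models for those above 500 CPM and above 10 times their window's median, with 5 CPM added to both, in all 3 embryos found 2. The other was Nv.T1.5970.2, which is not a member, at 1284, 938 and 552 CPM, against 49.8, 36.6 and 41.5 CPM as the next highest. The 3 embryos were chosen for these readings.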
